A study of Mus musculus with 6 samples.

Results

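The genes described here are extracellular proteases and their inhibitors in 3 established mouse mammary lines. Members were the listed genes whose symbols belong to the matrix metalloproteinase (Mmp), TIMP, ADAM, ADAMTS, serpin, lettered cathepsin (Cts), plasminogen activator (Plau, Plat), urokinase receptor (Plaur) and numbered cystatin (Cst) families, without Serpinh1. Of 11417 listed genes 72 were members: 43 proteases, 23 genes of inhibitor families, 5 protease-like genes without protease activity and the receptor Plaur. A total of 65 members reached 1 RPKM (reads per kilobase of gene, scaled to the library's total) in at least 2 libraries and were tested. The other 7 were Adam11, Adam19, Adamts15, Adamts16, Adamtsl2, Mmp17 and Serpinb7.

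Extracellular proteases cut matrix proteins, shed growth factors and receptors from the cell surface, and switch each other on by cleaving inactive precursors. TIMPs block metalloproteinases, serpins trap serine proteases, and cystatins block cysteine proteases, so the balance of enzyme and inhibitor sets the activity outside the cell. In the mammary gland, metalloproteinases and plasmin take part in the branching of ducts and in the remodelling of the gland after lactation.

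The lines were BC44, HC11 and C57MG, and poly(A) RNA of each gave 2 libraries, 6 in all. All cells were untreated and on plastic, in medium with 10% serum, and were collected 2 days after plating. BC44 cells grew in RPMI with 5 µg/ml insulin. HC11 cells also received 10 ng/ml of epidermal growth factor (EGF) in that medium. C57MG cells grew in DMEM with 10 µg/ml insulin. No medium was shared by 2 lines, so effects of line and of medium cannot be told apart. Nothing in the labels says that the 2 libraries of a line came from separate cultures, so p-values measure only the spread between these libraries. Fewer cells of a type and less RNA per cell cannot be told apart in these bulk samples.

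Depth, estimated from the steps between low values, was 14030000 to 18300000 reads per library. All 3 lines are labelled as mammary epithelial, and the summed level of epithelial markers was far lower in C57MG than in the others. Of 10 epithelial markers 8 were listed, and they summed to 312.3 and 264.1 RPKM in the BC44 libraries, 776.8 and 715.7 in HC11, and 2.82 and 0.549 in C57MG. Epcam, Cdh1, Esrp1 and Cldn4 were listed at 0 in C57MG replicate 2, Krt7 and Cldn3 at 0 in both C57MG libraries, and Cldn3 and Krt18 at 0 in both BC44 libraries. Krt7 was also near 0 in BC44, at 0.078 and 0.016 RPKM. Krt8 was lower in BC44 (0.038 and 0.064 RPKM) than in C57MG (0.307 and 0.503), and measured 144.4 and 148.0 RPKM in HC11. The BC44 sum thus came mostly from Epcam, Cdh1 and Esrp1. The 10 mesenchymal markers, with Vim, Col1a1 and Fn1 among them, summed to 253.1 and 295.8 RPKM in BC44, 211.8 and 297.3 RPKM in HC11, and 3698 and 3356 RPKM in C57MG. Fn1 made up most of the sum in BC44 (232.4 and 235.2 RPKM) and in HC11 (179.6 and 260.6 RPKM). Vim measured 15.2 and 49.4 RPKM in BC44, 23.1 and 26.7 RPKM in HC11, and 2708 and 2282 RPKM in C57MG. Col1a1 was at most 3.40 RPKM in BC44 and 0.202 in HC11, and 171.2 and 163.4 RPKM in C57MG. The leukocyte markers Cd68 and Lyz2, the 2 listed of 6, summed to 1.52 to 3.00 RPKM in BC44 and HC11 and to at most 21.9 in C57MG. Lyz2 made up most of the C57MG sum, at 18.6 and 17.2 RPKM, and was at most 0.317 RPKM in BC44 and HC11. The 5 basal markers were the keratin genes Krt5, Krt14, Krt17 and Krt6a together with Trp63. Their sums were 7047 and 6809 RPKM in BC44, 3849 and 3095 RPKM in HC11, and 168.1 and 83.3 RPKM in C57MG. Krt14 made up most of the C57MG sum, at 118.0 and 64.8 RPKM. Genes private to a line had a mean of at least 20 RPKM there and at most 2% of it in the third line. They also had at most 5% of it in the other replicate of the library measured. Genes private to C57MG (members left out) stood at a median of 0.662% of their C57MG level in BC44 replicate 1 and 2.01% in BC44 replicate 2. In HC11 the medians were 0.251% and 0.350%. Genes private to BC44 stood at 0.802% in C57MG replicate 1 and 0% in replicate 2, and at 1.99% and 1.22% in HC11. These medians rest on 63 to 72 genes private to C57MG, and for BC44 on 10 genes in C57MG and 17 in HC11. Of genes private to C57MG, 65.3% and 98.6% lay within 2-fold of the median in BC44, but 23.8% and 23.5% in HC11. Of genes private to BC44, 58.8% and 41.2% did so in HC11, so single genes can lie far from these medians. Whether RNA of another line contributed to low member values was not tested, and these shares are set beside several members that were low in a line.

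Summed expression of proteases and inhibitors was lowest in BC44. All 72 members together had 1892 and 1936 RPKM in the BC44 libraries, 2994 and 3758 in HC11, and 2968 and 2770 in C57MG, which is 0.577% and 0.583%, 0.875% and 1.09%, and 0.918% and 0.869% of each library's total. Among the 65 tested members, the highest mean level was in BC44 for 9, in HC11 for 24 and in C57MG for 32. Over all 10759 tested genes these shares were 33.5%, 28.0% and 38.5%, against 13.8%, 36.9% and 49.2% of the members. The 39 tested proteases and the 22 tested genes of inhibitor families divided differently, which was not tested. C57MG held the highest mean for 23 proteases and HC11 for 11, whereas HC11 held it for 12 inhibitor-family genes and C57MG for 7. These families include Serpinb5 and Serpinf1, which do not inhibit proteases, and Serpina3h and Serpinb10, which are annotated as pseudogenes.

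Lines were compared with limma on log2(RPKM + 1), with p-values adjusted over all tested genes and a threshold of 0.05. Differences are given on that scale, where changes of low genes come out too small. Counts at 2-fold or more use the same scale. Folds given for single genes are ratios of mean RPKM without the added 1, so they can exceed the log2 difference beside them. Between BC44 and HC11, 34 members were higher in HC11 (52.3%) and 11 in BC44 (16.9%), and 20 did not pass. Of all tested genes 47.7% passed in that comparison, 23.0% higher in HC11 and 24.7% higher in BC44. At a difference of at least 2-fold, 19 members were higher in HC11 and 5 in BC44, beside backgrounds of 7.09% and 5.42%. Between BC44 and C57MG, 40 members were higher in C57MG (61.5%) and 15 in BC44 (23.1%), where 71.7% of all tested genes passed, 34.1% higher in C57MG and 37.5% higher in BC44. At 2-fold or more the counts were 32 in C57MG and 13 in BC44, beside 15.0% and 14.7%. Between HC11 and C57MG, 26 members were higher in HC11 and 30 in C57MG, where 70.5% of all tested genes passed, 37.4% higher in HC11 and 33.2% in C57MG. At 2-fold or more 18 were higher in HC11 and 22 in C57MG, beside 14.2% and 12.9%. The median member difference was -0.51 for BC44 minus HC11, -0.98 for BC44 minus C57MG and 0.03 for HC11 minus C57MG, beside medians of 0.02, 0.04 and 0.03 over all tested genes. In total 29 members passed in all 3 comparisons (44.6%). How many of all tested genes passed in all 3 or in none was not counted, so these member counts have no background. Adam8, a leukocyte-associated ADAM, was the one that passed in none, with levels of 12.6 to 22.8 RPKM over the 6 libraries. The 3 comparisons share libraries, so their counts are not independent.

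The 8 secreted matrix metalloproteinases fell into 2 sets that differed in which line carried them. Mmp3, Mmp10, Mmp12 and Mmp13 were high in HC11 and near or at 0 in the others. Mmp2, Mmp11, Mmp19 and Mmp28 were highest in C57MG. The sum over the 8 genes was 16.9 and 13.9 RPKM in BC44, 46.9 and 97.7 RPKM in HC11, and 70.0 and 69.3 RPKM in C57MG. HC11 replicate 1 thus lay below both C57MG libraries and replicate 2 above them. Mmp3, Mmp10, Mmp12 and Mmp13 together gave 26.05 and 81.7 RPKM of the HC11 sums, and the other 4 genes gave the rest.

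The HC11 set lies in 1 cluster on chromosome 9 (GRCm38). Mmp10 (stromelysin-2), which cuts proteoglycans, laminin and fibronectin, measured 15.97 and 39.4 RPKM in HC11 and was listed at 0 in all 4 other libraries. Mmp3, the related stromelysin-1, measured 4.85 and 19.9 RPKM in HC11 and was also listed at 0 in the other 4. Mmp13 (collagenase-3), which cuts fibrillar collagen, measured 3.99 and 19.1 RPKM in HC11, 0 and 0.021 in BC44, and 0.021 and 0 in C57MG. Every HC11 library was above every library of the other lines for these genes. Mmp12, an elastase best known from macrophages, measured 1.25 and 3.28 RPKM in HC11, 0 and 0.008 in BC44, and 0 in both C57MG libraries. The estimated reads of these 4 genes in the other lines were 0 or 1 per library, so no fold is given. All 4 passed against both lines. The differences from BC44 (BC44 minus HC11) were -4.71 ± 0.34 (SE) for Mmp10 (adjusted p = 3.79e-05), -3.47 ± 0.49 for Mmp3 (0.00102), -3.31 ± 0.54 for Mmp13 (0.00194) and -1.63 ± 0.26 for Mmp12 (0.00176). Without HC11 replicate 2 the differences from BC44 were -4.08 for Mmp10, -2.55 for Mmp3 and -2.30 for Mmp13, and without HC11 replicate 1 they were -5.34, -4.38 and -4.32. The coding sequences of Mmp3 and Mmp10 are similar, and reads shared between them could have been divided by the counting. Mmp12 shares exon bases with Mmp1b on the opposite strand.

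The 4 promoters are printed because the genes neighbour each other and share an expression pattern. Each sequence is the 90 bases that end just before the RefSeq transcription start (GRCm38.p6, plus strand, 5′ to 3′). Capitals mark the match to TGANTCA, the AP-1 motif, where N is any base and the reverse complement has the same form, so both strands are read at once. AP-1 is the Fos and Jun family of transcription factors, a known regulator of stromelysin and collagenase genes. The sequences lie at chr9:7272424-7272513 (Mmp13), chr9:7347284-7347373 (Mmp12), chr9:7445732-7445821 (Mmp3) and chr9:7502252-7502341 (Mmp10).
Mmp13: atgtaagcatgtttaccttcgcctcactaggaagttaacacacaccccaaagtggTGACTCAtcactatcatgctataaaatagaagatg
Mmp12: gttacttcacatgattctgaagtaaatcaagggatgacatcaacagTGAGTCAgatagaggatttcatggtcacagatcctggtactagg
Mmp3: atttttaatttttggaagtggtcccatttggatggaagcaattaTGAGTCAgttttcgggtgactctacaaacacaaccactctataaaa
Mmp10: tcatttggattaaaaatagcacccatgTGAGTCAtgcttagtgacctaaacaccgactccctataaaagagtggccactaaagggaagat
The motif began 35 bases before the start in Mmp13, 44 in Mmp12 (in 1 of its 2 RefSeq windows), 46 in Mmp3 and 63 in Mmp10.

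Of the 72 members 48 had a RefSeq promoter window of 300 bases (250 before and 50 after the start), and 11 of these 48 held the motif (22.9%). It was held by 8.97% of all 27025 genes with a window and by 6.27% of the 8574 tested genes with one. The member share is not limited to tested genes. It includes the untested Adam19 and Serpinb7, which held the motif, and the untested Adamtsl2, which did not. The holders were the 4 Mmp genes above, 5 Serpinb genes of chromosome 1, Plaur and Adam19. None of the other Mmp genes with a window (Mmp11, Mmp14, Mmp15 and Mmp28) held it. The 5 Serpinb genes neighbour each other as well, so the 11 holders are not independent draws. A match describes these letters and shows no binding.

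**Figure D1:**
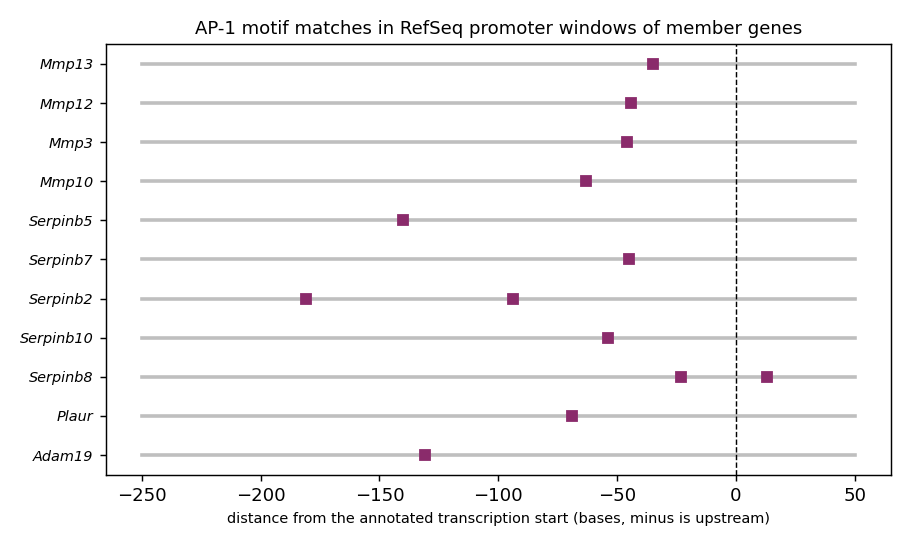
Position of TGANTCA matches (squares) in the RefSeq promoter windows (grey lines) of the 11 members that hold one, in bases from the annotated start (dashed line, minus is upstream). The matches of the 4 Mmp genes lie 35 to 63 bases upstream, and those of Serpinb5 and Adam19 lie 140 and 131 bases upstream.

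In C57MG the secreted enzymes were of another kind, and the replicates lay close together. Mmp28 (epilysin), an enzyme of epithelia and wounds, measured 2.42 and 2.46 RPKM in BC44, 5.43 and 3.91 RPKM in HC11, and 22.3 and 22.6 RPKM in C57MG. It was 9.21-fold higher in C57MG than in BC44 (log2 difference -2.77 ± 0.14, adjusted p = 1.60e-06). Mmp19, a matrix protease found in many tissues, measured 0.521 and 0.739 RPKM in BC44, 0.790 and 0.901 RPKM in HC11, and 13.4 and 13.0 RPKM in C57MG. Its BC44 values were 3.94% and 5.59% of the C57MG mean, above the 0.662% and 2.01% of genes private to C57MG. Mmp2 (gelatinase A), which degrades denatured collagen and basement membrane collagen, measured 10.8 and 8.02 RPKM in BC44, 11.1 and 8.73 RPKM in HC11, and 21.9 and 21.3 RPKM in C57MG. BC44 and HC11 overlapped for Mmp2, and C57MG was 2.29-fold above BC44 (adjusted p = 0.000379). Mmp11 (stromelysin-3), a protease of stromal cells, was also higher in C57MG, with means of 2.89, 3.00 and 12.4 RPKM in BC44, HC11 and C57MG.

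Among the membrane-anchored enzymes, Mmp14 was shared and Mmp15 was mostly a BC44 transcript. Mmp14, a collagenase of the cell surface that activates the Mmp2 precursor with the help of Timp2, measured 79.7 and 78.8 RPKM in BC44, 83.4 and 75.5 RPKM in HC11, and 210.8 and 203.3 RPKM in C57MG. It was the most abundant metalloproteinase of the Mmp family in all 3 lines and 2.61-fold higher in C57MG than in either other line (adjusted p = 2.96e-06 against BC44 and 3.48e-06 against HC11). Between BC44 and HC11 the difference was 0.00 ± 0.08 (SE). Mmp15, a related transmembrane enzyme, measured 34.7 and 21.2 RPKM in BC44, 0.780 and 0.337 RPKM in HC11, and 0.102 and 0 RPKM in C57MG. Its HC11 values were 2.79% and 1.20% of the BC44 mean and its C57MG values 0.365% and 0%, beside 1.99% and 1.22%, and 0.802% and 0%, for genes private to BC44. Its difference was 4.19 ± 0.23 from HC11 (adjusted p = 1.13e-05) and 4.75 ± 0.23 from C57MG (1.48e-06). HC11 minus C57MG was 0.56 ± 0.23 (adjusted p = 0.0647), which passed without BC44 replicate 1 (0.0238) or replicate 2 (0.0243), at a pseudocount of 0.1 (2.13, 0.00597), with the replicate block (0.00895) and in the fit of the 4 libraries compared (0.021). With other lines' signal subtracted this Mmp15 difference was 0.15 (adjusted p = 0.574). Mmp16, a further transmembrane enzyme, reached 1.67 and 1.53 RPKM in C57MG, and its BC44 values of 0.008 and 0.026 were 0.5% and 1.62% of that, close to the share of genes private to C57MG. Mmp17, which was not tested, measured 0.700 and 0.509 RPKM in BC44, 0.123 and 0.191 in HC11, and was listed at 0 in C57MG.

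The 3 TIMPs did not follow 1 line. Timp1, a soluble inhibitor of most secreted metalloproteinases, measured 41.8 and 44.6 RPKM in BC44, 382.9 and 482.3 RPKM in HC11, and 139.6 and 108.5 RPKM in C57MG. HC11 was 10.0-fold above BC44 (-3.29 ± 0.15, adjusted p = 4.09e-06) and 3.49-fold above C57MG (1.80 ± 0.15, 2.44e-05), and the lines did not overlap. Timp2, which also binds Mmp14, measured 211.3 and 201.9 RPKM in BC44, 418.5 and 522.2 RPKM in HC11, and 458.6 and 444.2 RPKM in C57MG. It was 2.28-fold higher in HC11 and 2.18-fold higher in C57MG than in BC44 (adjusted p = 0.000135 and 5.61e-05), while HC11 and C57MG overlapped and differed by the test only without HC11 replicate 1 (0.0473). Timp3, which is bound to the matrix and inhibits ADAM17 and several ADAMTS enzymes, ran the other way. It measured 185.0 and 202.4 RPKM in BC44, 105.5 and 133.8 RPKM in HC11, and 82.1 and 85.2 RPKM in C57MG, and passed in all 3 comparisons (0.70 ± 0.12, 1.20 ± 0.12 and 0.50 ± 0.12). The ratio of Timp1 to Timp3 was therefore 0.226 and 0.220 for BC44, 3.63 and 3.61 for HC11, and 1.70 and 1.27 for C57MG. The ratio of Mmp14 to Timp2 was 0.377 and 0.390 for BC44, 0.199 and 0.145 for HC11, and 0.460 and 0.458 for C57MG. Timp3 shares exon bases with Syn3 on the opposite strand.

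**Figure D2:**
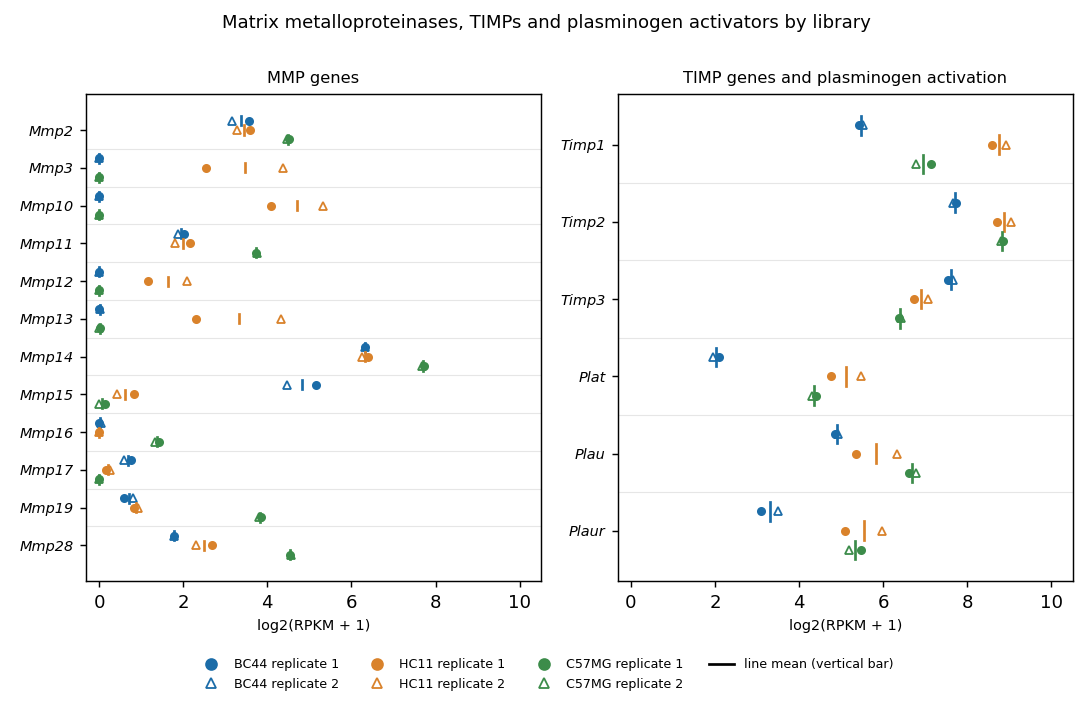
Levels of the 12 Mmp genes (left) and of the TIMP and plasminogen activation genes (right) in each library, as log2(RPKM + 1). Circles are replicate 1, triangles replicate 2 and vertical bars line means. Mmp3, Mmp10, Mmp12 and Mmp13 lie at or near 0 outside HC11, and Timp1 is highest in HC11 while Timp3 is highest in BC44.

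The urokinase system was lowest in BC44. Plasminogen activators convert plasminogen to plasmin, a broad protease that degrades fibrin and activates metalloproteinases. Plau (urokinase) measured 28.0 and 29.4 RPKM in BC44, 40.0 and 78.9 RPKM in HC11, and 96.4 and 108.4 RPKM in C57MG. C57MG was 3.57-fold above BC44 (-1.80 ± 0.27, adjusted p = 0.000561). Plau in HC11 also passed against BC44 (adjusted p = 0.0222) and against C57MG (0.0225). These calls were lost when either BC44 library was left out, and that against C57MG also when either C57MG library was, with adjusted p of up to 0.114 and 0.102, and both with robust variance. Plat (tissue plasminogen activator) measured 3.30 and 2.90 RPKM in BC44, 26.0 and 43.1 RPKM in HC11, and 20.1 and 18.8 RPKM in C57MG. HC11 was 11.2-fold above BC44 (-3.08 ± 0.21, adjusted p = 2.76e-05) and C57MG was 6.28-fold above it (3.46e-05). HC11 passed against C57MG (0.76 ± 0.21, adjusted p = 0.0129), a call lost without C57MG replicate 2 (0.0667). Plaur, the receptor that holds urokinase at the cell surface, measured 7.55 and 10.3 RPKM in BC44, 33.0 and 62.0 RPKM in HC11, and 43.1 and 35.3 RPKM in C57MG. It was 5.31-fold higher in HC11 and 4.38-fold higher in C57MG than in BC44 (adjusted p = 0.000546 and 0.000366). HC11 and C57MG overlapped for Plaur, and their difference passed only without HC11 replicate 1 (0.0339).

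Serpine2 and Serpinb2, serpins that can inhibit urokinase, were both highest in HC11. Serpine2 (protease nexin), which inhibits thrombin, urokinase and plasmin, measured 0.107 and 0.015 RPKM in BC44, 164.8 and 213.9 RPKM in HC11, and 0.144 and 0.135 RPKM in C57MG. BC44 minus HC11 was -7.48 ± 0.14 (adjusted p = 2.64e-07) and HC11 minus C57MG was 7.37 ± 0.14 (1.41e-07), both larger in size than any difference of another tested member. Serpinb2, which inhibits urokinase and is largely kept inside cells, measured 4.397 and 10.0 RPKM in BC44, 11.2 and 37.8 RPKM in HC11, and 0.141 and 0 RPKM in C57MG. It passed against C57MG in both lines (2.85 ± 0.52 and 4.35 ± 0.52, adjusted p = 0.00179 and 0.000199). Without HC11 replicate 2 the HC11 difference was 3.52, and without replicate 1 it was 5.18. BC44 against HC11 lay at the threshold (-1.50 ± 0.52, adjusted p = 0.0492). That call was lost on leaving out either BC44 library, either C57MG library or HC11 replicate 2, with adjusted p of up to 0.279, and in 13 alternatives in all.

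The HC11 libraries differed from each other in several of these genes. On the log2(RPKM + 1) scale HC11 replicate 2 was at least 2-fold above replicate 1 for 5 of 65 members (7.69%), against 0.632% of all tested genes. The 5 were Mmp3, Mmp10, Mmp13, Serpinb2 and Serpina3g, and no member was 2-fold higher in replicate 1. By any amount, replicate 2 was higher for 45 members (69.2%), against 47.3% of all tested genes. In BC44 and in C57MG 1 member each differed by 2-fold or more between replicates. What separated the HC11 libraries was not tested.

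Of the 7 ADAM genes with a protease motif, the 6 tested were expressed in all 3 lines. Adam10, the sheddase that cleaves Notch and E-cadherin, measured 30.6 and 33.2 RPKM in BC44, 78.5 and 91.1 RPKM in HC11, and 69.5 and 67.6 RPKM in C57MG. HC11 was 2.66-fold and C57MG 2.15-fold above BC44 (adjusted p = 2.82e-05 and 2.88e-05). HC11 against C57MG passed at 0.30 ± 0.09 (adjusted p = 0.0221), a call lost without HC11 replicate 2 or either C57MG library (up to 0.106). Adam9, a sheddase of heparin-binding growth factor precursors, measured 18.6 and 19.6 RPKM in BC44, 36.3 and 38.8 RPKM in HC11, and 54.9 and 53.7 RPKM in C57MG. The 3 lines did not overlap for Adam9, and all 3 comparisons passed (adjusted p = 7.21e-05, 2.23e-06 and 0.00061). Adam17, which releases TNF and EGF receptor ligands, had means of 12.5, 18.2 and 17.8 RPKM in BC44, HC11 and C57MG, lower in BC44 than in HC11 (-0.50 ± 0.09, adjusted p = 0.00347) and in C57MG (-0.47 ± 0.09, 0.00236). Adam15 took another order, with 17.6 and 15.2 RPKM in BC44, 12.2 and 13.4 RPKM in HC11, and 28.1 and 25.5 RPKM in C57MG. It was higher in C57MG than in both others (adjusted p = 0.000758 and 9.68e-05). BC44 above HC11 passed for Adam15 (0.33 ± 0.11, adjusted p = 0.0371), which was lost on leaving out any of 5 of the 6 libraries, BC44 replicate 2 being the exception (up to 0.188). Adam12 was higher in HC11 than in both others, with means of 11.1, 19.8 and 8.65 RPKM in BC44, HC11 and C57MG. Adam19, not tested, measured 0.394 and 0.932 RPKM in HC11 and no more than 0.016 elsewhere.

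ADAMTS enzymes cut proteoglycans and procollagens, and the C57MG libraries held the higher level of most of them. Of the 10 tested, 7 were higher in C57MG than in BC44 and 8 were higher in C57MG than in HC11, beside 34.1% and 33.2% of all tested genes. The procollagen N-propeptidase Adamts2 measured 0.081 and 0.166 RPKM in BC44, 0.029 and 0.022 RPKM in HC11, and 11.4 and 11.6 RPKM in C57MG. Its difference was -3.48 ± 0.10 from BC44 (adjusted p = 2.71e-07) and -3.61 ± 0.10 from HC11 (2.09e-07). The BC44 values were 0.704% and 1.44% of the C57MG mean and the HC11 values 0.252% and 0.191%, near the shares of genes private to C57MG in both lines. Adamts9 and Adamts12, which act on proteoglycans and other matrix proteins, had C57MG means of 3.17 and 6.42 RPKM. In BC44 Adamts9 stood at 0.347% and 1.01% of its C57MG mean and Adamts12 at 3.07% and 2.86%. Adamts12 in HC11 (1.02 and 0.571 RPKM) was above BC44 (0.197 and 0.184), a call lost without either BC44 library (adjusted p 0.0121, up to 0.0645). Adamts4 (aggrecanase) was ordered BC44, HC11, C57MG from low to high, with means of 0.454, 1.53 and 4.29 RPKM and no overlap.

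Adamts1 and Adamts5, which also cut aggrecan and versican, ran against the rest of the class. Adamts1 measured 118.6 and 168.5 RPKM in BC44, 83.4 and 122.4 RPKM in HC11, and 3.70 and 1.54 RPKM in C57MG. It was 54.8-fold higher in BC44 (5.37 ± 0.31, adjusted p = 3.59e-06) and 39.3-fold higher in HC11 (4.89 ± 0.31, 6.55e-06) than in C57MG, while BC44 and HC11 overlapped. Without C57MG replicate 1 these Adamts1 ratios were 93.1 and 66.8. The C57MG values of Adamts1 were 2.57% and 1.07% of the BC44 mean, above the 0.802% and 0% of genes private to BC44. Adamts5 measured 12.2 and 12.9 RPKM in BC44, 5.97 and 9.69 RPKM in HC11, and 4.73 and 4.49 RPKM in C57MG. BC44 against C57MG passed for Adamts5 (1.27 ± 0.19, adjusted p = 0.000539). HC11 against BC44 and against C57MG also passed, but these calls were lost without either library of the line it was set against (up to 0.122 and 0.0870). Because Adamts1 was so abundant, the class sum went against the class count: 135.8 and 185.3 RPKM in BC44, 95.0 and 138.0 RPKM in HC11, and 40.9 and 40.6 RPKM in C57MG.

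ADAMTS-like genes encode matrix proteins without the catalytic domain. Adamtsl3 measured 2.04 and 2.34 RPKM in BC44, 0.139 and 0.108 RPKM in HC11, and 56.4 and 48.8 RPKM in C57MG. All 3 comparisons passed, with -4.07 ± 0.11 for BC44 minus C57MG (adjusted p = 2.71e-07). The BC44 values were 3.88% and 4.45% of the C57MG mean, above the share of genes private to C57MG, and the HC11 values were 0.264% and 0.205%, near that share. Adamtsl4, which binds fibrillin microfibrils, had means of 11.3, 7.89 and 38.9 RPKM in BC44, HC11 and C57MG and was higher in C57MG than in both (adjusted p = 6.60e-05 and 2.02e-05). Adamtsl5 was the BC44 member of the class, with 17.1 and 17.5 RPKM in BC44, 1.70 and 1.89 RPKM in HC11, and 1.01 and 0.728 RPKM in C57MG. It was 9.62-fold higher in BC44 than in HC11 (adjusted p = 3.47e-06) and 19.9-fold higher than in C57MG (3.49e-07).

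**Figure D3:**
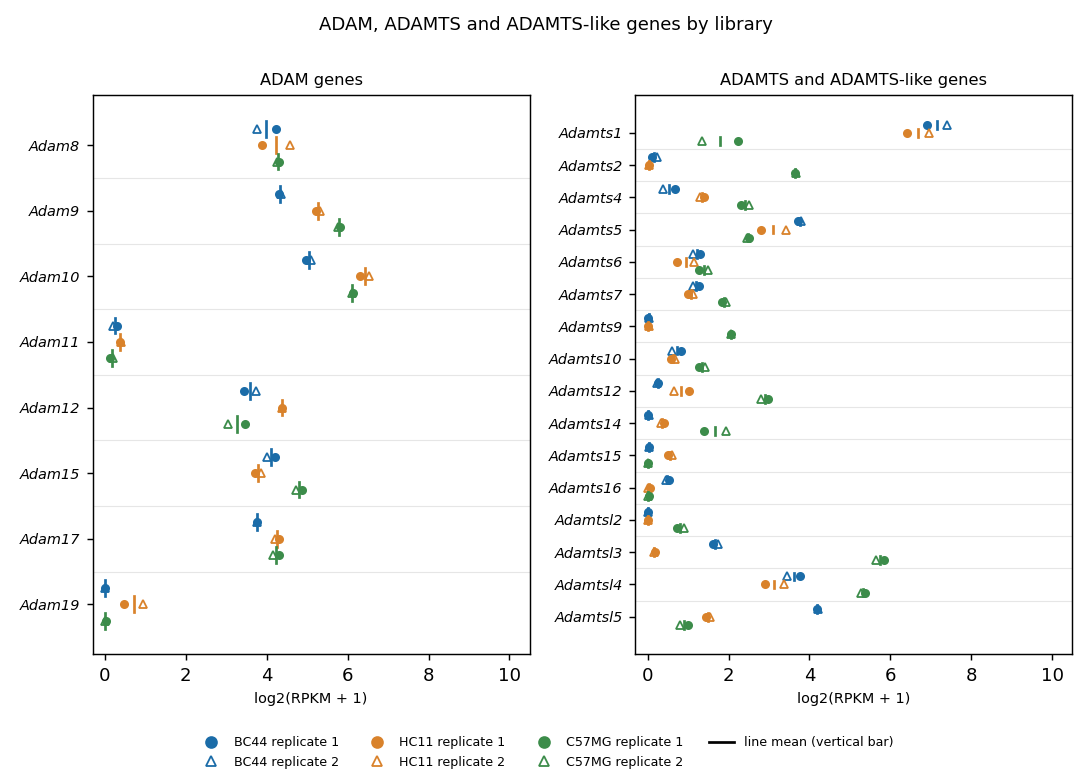
Levels of ADAM genes (left) and of ADAMTS and ADAMTS-like genes (right) in each library, as log2(RPKM + 1). Circles are replicate 1, triangles replicate 2 and vertical bars line means. Adamts1 is the one ADAMTS gene above 80 RPKM in BC44 and HC11, and Adamts2, Adamts9, Adamts12 and Adamtsl3 are highest in C57MG.

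The cathepsins, lysosomal proteases that cells can also secrete, were led by different enzymes. The 10 genes summed to 592.2 and 581.6 RPKM in BC44, 956.6 and 1113 RPKM in HC11, and 1018 and 962.6 RPKM in C57MG. Ctsl, a cysteine endopeptidase, measured 272.0 and 283.0 RPKM in BC44, 581.3 and 747.3 RPKM in HC11, and 95.2 and 95.3 RPKM in C57MG. Ctsb, a cysteine protease that also trims dipeptides, was highest in C57MG, where Ctsl was lowest, with 37.9 and 37.1 RPKM in BC44, 67.9 and 70.2 RPKM in HC11, and 163.3 and 179.5 RPKM in C57MG. Neither gene had overlapping lines. Ctsl was 2.39-fold higher in HC11 than in BC44 (-1.25 ± 0.12, adjusted p = 0.000139) and 6.97-fold higher in HC11 than in C57MG (2.78 ± 0.12, 8.78e-07). Ctsb was also higher in HC11 than in BC44, by 1.84-fold (-0.86 ± 0.08, 0.000108). It was 4.57-fold higher in C57MG than in BC44 (-2.16 ± 0.08, 3.76e-07) and 2.48-fold higher than in HC11 (-1.30 ± 0.08, 4.53e-06). The ratio of Ctsl to Ctsb was 7.18 and 7.62 for BC44, 8.57 and 10.6 for HC11, and 0.583 and 0.531 for C57MG. Ctsl and Ctsb each share exon bases with an opposite-strand gene (Gm47123 and Fdft1), and Ctsl also shares them with Gm49230 on its own strand.

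Ctsd, the aspartic cathepsin, measured 219.4 and 207.7 RPKM in BC44, 218.7 and 213.6 RPKM in HC11, and 655.1 and 588.6 RPKM in C57MG. C57MG was 2.91-fold above BC44 and 2.88-fold above HC11 (adjusted p = 2.25e-06 and 2.76e-06), and BC44 and HC11 overlapped. Ctsa, a serine carboxypeptidase, and Ctsz, a cysteine carboxypeptidase, passed in all 3 comparisons and were ordered BC44, HC11, C57MG from low to high. Their means were 9.48, 14.3 and 26.0 RPKM for Ctsa and 28.3, 46.0 and 67.2 for Ctsz. Ctsc, Ctsf and Ctsh were low in C57MG instead. Ctsh, an aminopeptidase, measured 11.3 and 11.2 RPKM in BC44, 19.1 and 14.2 RPKM in HC11, and 0.128 and 0.038 RPKM in C57MG. Ctsc, which activates granule serine proteases by removing dipeptides, measured 6.39 and 6.81 RPKM in BC44, 5.11 and 4.22 RPKM in HC11, and 0.057 and 0 RPKM in C57MG. The C57MG values of Ctsh were 0.769% and 0.228% of its HC11 mean. The C57MG values of Ctsc were 0.864% and 0% of the BC44 mean, like the 0.802% and 0% of genes private to BC44. Both genes passed against C57MG (Ctsh 3.50 ± 0.15 and 4.01 ± 0.15, Ctsc 2.89 ± 0.12 and 2.46 ± 0.12). Between BC44 and HC11 both passed (adjusted p = 0.0233 for Ctsh and 0.0188 for Ctsc). Those calls were lost without either BC44 library, and also without HC11 replicate 1 for Ctsh or replicate 2 for Ctsc (up to 0.0999 and 0.0872), and at a pseudocount of 0.1. Ctso, a little-studied cysteine cathepsin, measured 7.78 and 8.17 RPKM in C57MG, 0.671 and 0.549 in HC11, and 0.045 and 0.138 in BC44, the last being 0.564% and 1.73% of C57MG.

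The 2 cystatins differed between lines by 2.05-fold at most. Cst3 (cystatin C), a secreted inhibitor of cysteine cathepsins, stood at 161.8 and 129.4 RPKM in BC44, 101.5 and 95.4 RPKM in HC11, and 193.4 and 210.8 RPKM in C57MG. All 3 comparisons passed for Cst3, with 2.05-fold between C57MG and HC11 (adjusted p = 0.000126). The ratio of Ctsl to Cst3 was 1.68 and 2.19 for BC44, 5.73 and 7.84 for HC11, and 0.492 and 0.452 for C57MG, with no overlap between lines. The ratio of Ctsb to Cst3 was 0.234 and 0.287 for BC44, 0.668 and 0.736 for HC11, and 0.844 and 0.851 for C57MG. Cst6 (cystatin M), an inhibitor found in skin and breast epithelium, had means of 3.04, 3.74 and 2.07 RPKM. HC11 was above C57MG for Cst6 (0.63 ± 0.13, adjusted p = 0.00310), and BC44 above C57MG passed at 0.0235 but not without either BC44 library or C57MG replicate 2 (up to 0.164).

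**Figure D4:**
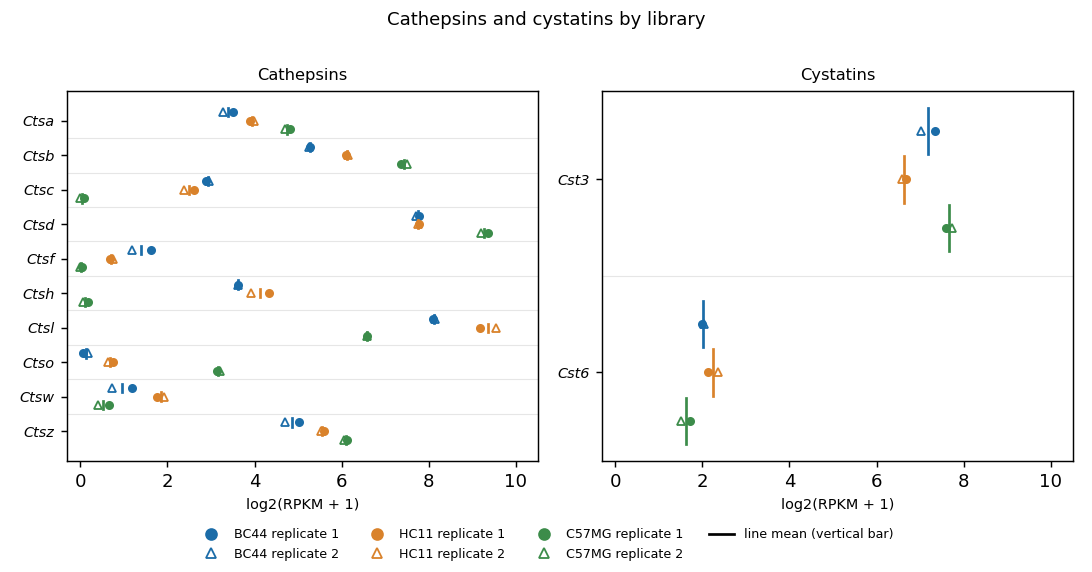
Levels of the 10 cathepsin genes (left) and the 2 cystatin genes (right) in each library, as log2(RPKM + 1). Circles are replicate 1, triangles replicate 2 and vertical bars line means. Ctsl is highest in HC11 and lowest in C57MG, Ctsb and Ctsd are highest in C57MG, and Ctsc, Ctsf and Ctsh are near 0 in C57MG.

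The Serpinb genes, whose products mostly stay inside cells, are described by their place in the genome, a grouping made after the values were seen. Those on chromosome 13 (Serpinb1a, 1b, 6a, 6b, 9 and 9b) were all higher in C57MG than in BC44, 6 of 6, while of the 4 tested on chromosome 1 (Serpinb2, 5, 8 and 10) 3 were higher in BC44 than in C57MG. Over all tested genes 34.1% were higher in C57MG and 37.5% in BC44. Between HC11 and C57MG the chromosome 13 genes were divided, with 1 higher in HC11, 3 in C57MG and 2 not passing, and of the chromosome 1 genes 3 were higher in HC11 and 1 in C57MG, beside 37.4% and 33.2% of all tested genes. Serpinb5 (maspin), a serpin of myoepithelial and basal epithelial cells that does not inhibit proteases, measured 157.4 and 169.3 RPKM in BC44, 93.7 and 80.0 RPKM in HC11, and 1.53 and 0.047 RPKM in C57MG. It was higher in BC44 (6.66 ± 0.35, adjusted p = 2.06e-06) and in HC11 (5.75 ± 0.35, 5.04e-06) than in C57MG, with differences of 6.02 and 5.11 without C57MG replicate 2 and 7.29 and 6.39 without replicate 1. The C57MG values of Serpinb5 were 0.936% and 0.0288% of the BC44 mean, beside 0.802% and 0% for genes private to BC44. BC44 against HC11 did not pass for Serpinb5 (0.91 ± 0.35, adjusted p = 0.0667), although the lines did not overlap, and it passed in 6 alternatives. These were leaving out C57MG replicate 1 (0.00104) or replicate 2 (0.00101), the replicate block (0.0268), the fit of the 4 libraries compared (0.00100), quantile normalization (0.0461) and subtraction of other lines' signal (0.000601).

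Serpinb10 and Serpinb2 share exon bases on the same strand, so their reads can be confused. Serpinb10, which is annotated as a polymorphic pseudogene, measured 8.98 and 17.5 RPKM in BC44, 0.910 and 2.76 RPKM in HC11, and 0.159 and 0.019 RPKM in C57MG. The C57MG values were 1.20% and 0.144% of the BC44 mean. It was higher in BC44 than in HC11 (2.34 ± 0.36, adjusted p = 0.00159) and than in C57MG (3.64 ± 0.36, 6.25e-05), and HC11 above C57MG (0.0139) was lost without HC11 replicate 2 or C57MG replicate 2 (up to 0.0934). Serpinb8, which inhibits furin, measured 4.97 and 7.28 RPKM in BC44, 1.19 and 1.47 RPKM in HC11, and 13.2 and 12.6 RPKM in C57MG, with all 3 comparisons passing and no overlap. Serpinb7, not tested, measured 0.963 and 0.678 RPKM in HC11, 0.537 and 0.895 in C57MG, and 0.035 and 0.029 in BC44.

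The promoters of Serpinb5, Serpinb2 and Serpinb10 also match TGANTCA and are printed to set beside the Mmp cluster because their levels were ordered differently. All 3 matches read TGAATCA, with A in the middle, whereas those of the 4 Mmp genes read TGAGTCA or TGACTCA, the usual AP-1 form with G or C there. Serpinb7 and Serpinb8 held TGAGTCA. They lie at chr1:106861005-106861071, chr1:107511299-107511365 and chr1:107528919-107528985 (GRCm38.p6, plus strand, capitals as above).
Serpinb5: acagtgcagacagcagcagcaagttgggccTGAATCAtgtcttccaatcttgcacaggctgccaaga
Serpinb2: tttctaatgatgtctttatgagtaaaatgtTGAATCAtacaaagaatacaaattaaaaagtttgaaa
Serpinb10: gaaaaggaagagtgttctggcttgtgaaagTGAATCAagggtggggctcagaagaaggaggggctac
The motif lay 140 bases before the start in Serpinb5, 94 in Serpinb2 (181 from its other start) and 54 in Serpinb10. Holders of a match were not all highest in the same line. By mean level Serpinb5 and Serpinb10 were highest in BC44 and Serpinb8 in C57MG. The other holders, Mmp3, Mmp10, Mmp12, Mmp13, Serpinb2, Plaur and the untested Serpinb7 and Adam19, were highest in HC11. For Plaur and Serpinb7 the HC11 and C57MG libraries overlapped. Among tested members HC11 held the highest mean for 36.9%. Whether a match goes with a line was not tested.

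On chromosome 13, Serpinb6a, an inhibitor of cathepsin G, measured 30.5 and 33.3 RPKM in BC44, 45.8 and 48.9 RPKM in HC11, and 84.0 and 74.9 RPKM in C57MG. All 3 comparisons passed for it (adjusted p = 0.00199, 9.21e-06 and 0.000218). Serpinb1a, an inhibitor of neutrophil elastase, had means of 2.49, 2.14 and 18.3 RPKM in BC44, HC11 and C57MG and was higher in C57MG than in BC44 (-2.46 ± 0.17, adjusted p = 8.57e-06) and in HC11 (7.08e-06). Serpinb6b was highest in HC11 with 3.30 and 4.66 RPKM, against 0.093 and 0.234 in BC44 and 2.21 and 1.92 in C57MG. Serpinb9, an inhibitor of granzyme B, was lowest in BC44 with 6.34 and 7.97 RPKM, against 10.3 and 13.9 in HC11 and 12.2 and 11.0 in C57MG. Its calls against HC11 and C57MG (adjusted p = 0.0104 and 0.00840) were lost without BC44 replicate 1, and on leaving out HC11 replicate 2 and C57MG replicate 1 respectively (up to 0.0793 and 0.0670). Copies within the pairs 1a and 1b, 6a and 6b, and 9 and 9b are similar in sequence, so the division of reads between them is uncertain.

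The serpins of clade A were highest in HC11 in these data. They are mouse relatives of antichymotrypsin and lie in a cluster of near copies, so values of single genes are uncertain. Serpina3h, annotated as a transcribed pseudogene, measured 5.83 and 10.4 RPKM in BC44, 104.2 and 173.3 RPKM in HC11, and 0.137 and 0.160 RPKM in C57MG. It was 17.1-fold higher in HC11 than in BC44 (-3.94 ± 0.28, adjusted p = 3.75e-05), and the difference from C57MG was 6.88 ± 0.28 (8.07e-07). Serpina3i measured 0.492 and 0.618 RPKM in BC44, 8.55 and 11.99 in HC11, and was listed at 0 in C57MG. Serpina3g measured 1.10 and 3.28 RPKM in HC11 and was listed at 0 in the other 4 libraries. Serpinf1 (pigment epithelium-derived factor), which inhibits vessel growth and not proteases, had means of 0.168, 2.03 and 1.54 RPKM in BC44, HC11 and C57MG and was higher in HC11 and in C57MG than in BC44 (adjusted p = 0.000318 and 0.00036). Serping1, the inhibitor of complement C1, was highest in C57MG at 1.64 and 2.23 RPKM, with means of 0.027 in BC44 and 0.220 in HC11.

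**Figure D5:**
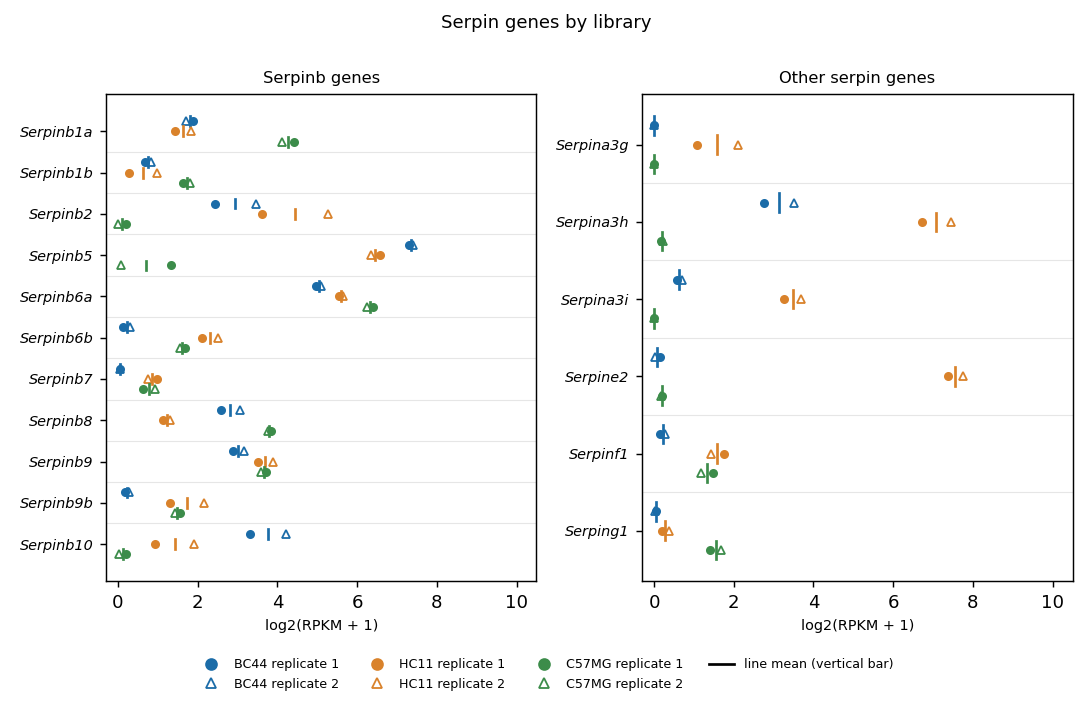
Levels of Serpinb genes (left) and 6 other serpin genes (right) in each library, as log2(RPKM + 1). Circles are replicate 1, triangles replicate 2 and vertical bars line means. Serpine2 and the Serpina3 genes are highest in HC11, and Serpinb5 is near 0 in C57MG and above 75 RPKM in the other lines.

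Genes of pericellular proteolysis outside these families are given for comparison. Of 68 such genes 52 were listed and 50 tested. In BC44 against HC11, 17 were higher in BC44 and 21 in HC11, beside 24.7% and 23.0% of all tested genes. In BC44 against C57MG 20 were higher in each, and in HC11 against C57MG 22 were higher in HC11 and 21 in C57MG. For BC44 and C57MG the background was 37.5% and 34.1%, and for HC11 and C57MG it was 37.4% and 33.2%. Of the 50 tested, 10 did not pass between BC44 and C57MG and 7 did not pass between HC11 and C57MG. Among all tested genes 71.7% and 70.5% passed in these comparisons, a lower share than among the 50. Epithelial inhibitors of serine proteases were among the largest differences. Slpi, an inhibitor of elastase, measured 2.55 and 2.67 RPKM in BC44, 374.7 and 676.7 RPKM in HC11, and 55.1 and 61.3 RPKM in C57MG (BC44 minus HC11 -7.13 ± 0.24, adjusted p = 1.53e-06). Wfdc2, of the same whey acidic protein family, measured 9.60 and 8.35 RPKM in BC44, 308.4 and 326.5 in HC11, and was listed at 0 in C57MG. Spink5, an inhibitor of kallikreins, measured 495.7 and 657.8 RPKM in BC44, 33.1 and 32.6 RPKM in HC11, and 5.04 and 0.095 RPKM in C57MG. Its difference between BC44 and C57MG was 7.80 ± 0.66 (adjusted p = 2.54e-05), 6.56 without C57MG replicate 2 and 9.03 without replicate 1. Spint2, an inhibitor of membrane serine proteases, had means of 106.3, 142.8 and 0.420 RPKM in BC44, HC11 and C57MG (adjusted p = 4.15e-07 and 3.86e-07 against C57MG).

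BC44 was marked among these genes by Mme (neprilysin), a surface peptidase of myoepithelial cells, with 91.8 and 56.7 RPKM against no more than 0.405 in the other lines. Pi15, a peptidase inhibitor, measured 40.7 and 38.5 RPKM in BC44, 1.16 and 1.40 RPKM in HC11, and 0.328 and 0.009 RPKM in C57MG. C57MG was marked by Pcolce, an enhancer of procollagen processing, with means of 2.28, 0.759 and 109.1 RPKM in BC44, HC11 and C57MG. Mrc2, a receptor that takes up collagen, had means of 0.790, 0.0435 and 53.5 RPKM. Prss23, a secreted serine protease, measured 15.1 and 17.6 RPKM in BC44, 3.66 and 2.99 RPKM in HC11, and 223.2 and 240.7 RPKM in C57MG, and passed in all 3 comparisons. The BC44 calls above HC11 for Pcolce and Mrc2 were lost once the share of other lines' genes was subtracted (adjusted p up to 0.0986 and 0.425), an alternative chosen after the data were seen.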

How the data were processed

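The authors deposited 1 table of RPKM values per gene for all 6 libraries, with STAR and the mouse build mm9 named in the submitters' processing notes. The counter, the gene lengths and the use of strand in counting are not given in the sources used here, so values of overlapping and near-identical genes are uncertain. All 11417 identifiers matched GENCODE M21 (GRCm38), the source of positions and overlaps. Of the members 19 share exon bases with an opposite-strand gene and 4 with a same-strand gene. Read counts were not analysed here. Depth was estimated from RPKM steps and exon length: 78.6% to 84.2% of the low values used lay within 0.15 of a whole multiple, against 30.0% by chance.

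The test was limma (version 3.58.1, R version 4.3.3) on log2(RPKM + 1), two-sided and with the trend option of eBayes, with all 6 libraries sharing 1 spread, Benjamini-Hochberg adjustment over the 10759 genes with at least 1 RPKM in at least 2 libraries, and a threshold of 0.05. It was checked on simulated data. An exact permutation test of 2 libraries against 2 could not pass this threshold and was not used. Sums and ratios of RPKM were computed in Python 3.11.15 with pandas 2.3.3 and have no test.

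The rule for naming members asked for 20 RPKM on average in 1 or more lines, a called log2 difference of at least 2, or the highest level of their class. Members named beyond this rule, to complete their class or after their values were seen, were Adam8, Adam12, Adam17, Adamts4, Adamts5, Cst6, Ctsf, Mmp11, Mmp12, Mmp16, Serpina3g, Serpinb1b, Serpinb9, Serpinb9b and the 7 untested genes. Of the other proteolysis genes, the 2 with the largest called change per comparison and direction were named. The results of 1 member are counted but not reported here. The members and lists were chosen with earlier results of these data known. Promoter sequences are from RefSeq (GRCm38.p6).

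Other settings tried were median-ratio scaling, quantile normalization, 0.1 as pseudocount, no filter, a filter at a mean of 5 RPKM, a fit of the 4 libraries compared, no trend, robust variance, a replicate block, each library left out and, added after seeing the data, subtraction of other lines' signal.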

Additional observations from a re-analysis of the deposited data

How the results depend on the processing

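Counts of members passing stayed within 1.5 times under every alternative but 1. With a mean of at least 5 RPKM required, fewer members were tested: 22 were higher in HC11 than in BC44 (34 before). Under that filter 36 passed between BC44 and C57MG (55 before), 25 of them higher in C57MG (40 before). It left 33 between HC11 and C57MG (56 before), 16 higher in HC11 (26 before) and 17 higher in C57MG (30 before). Of 156 calls of single members 139 were kept in all alternatives that tested them, and of 39 comparisons that did not pass 15 passed in some alternative. Leaving out BC44 replicate 1 lost 13 calls, the most of any library. No called difference changed sign. The labels do not say whether same-numbered libraries were paired. Their deviations from the line means correlated across genes with r = 0.354 for BC44 and HC11. The values were -0.0387 for BC44 and C57MG and 0.0379 for HC11 and C57MG. Genes are not independent and there are only 2 replicate numbers, so these values cannot decide whether libraries were paired. With the replicate block 46 members passed between BC44 and HC11, 56 between BC44 and C57MG and 57 between HC11 and C57MG, and no member call was lost. Quantile normalization and median-ratio scaling moved the median of all genes by -0.033 to 0.013 (log2). Estimated depth limits values below about 0.1 RPKM to a few reads, and read numbers cover counting error only.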
